A study of Mus musculus with 125 samples.

Results

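The liver lines its sinusoids with a fenestrated endothelium that clears macromolecules from the blood, and the 9 genes described here encode receptors and marker proteins of that lining: Stab1, Stab2, Lyve1, Mrc1, Clec4g, Fcgr2b, Clec1b, Gpr182 and Oit3. They were chosen by name, and they are 9 of the 21887 protein-coding genes of the annotation used. All 9 had a chromatin accessibility peak within 50 kb of the gene in at least 2 libraries, which 21173 protein-coding genes did. The study profiled blood vessels of mouse organs by ATAC-seq, an assay that cuts and tags DNA where chromatin is open. The 66 ATAC-seq libraries came from liver, brain, retina, heart, lung and kidney of adults of 2 months and of pups labelled P6 (postnatal day 6), and from brain, heart and trunk of embryos labelled E12. Of these, 37 were endothelial libraries (12 adult, 14 P6, 11 E12) and 29 came from input nuclei, which the labels give an organ and no cell type (10 adult, 16 P6, 3 E12). A further 5 single-cell RNA libraries were added, 1 for each of 5 ages of brain (3 embryonic, P8 and adult), with 42340 barcodes in all.

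In every ATAC-seq group, input included, the mice had received tamoxifen, and samples without GFP in the vasculature were not taken further. It was given at E10.5 with collection at E12.5 for embryos, at P1 and P3 for pups, and 7 days before collection for adults. The protocol gives P7 as the pups' day of collection, against P6 in the labels. The labels name neither the GFP allele and its driver nor the strain, and they do not say that libraries of a group came from separate animals, so p-values measure only the spread between libraries. Brain cells for single-cell RNA were taken with anti-CD31 beads, from the whole brain in embryos and from cortex at P8 and in adults.

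Scavenger endothelium takes up hyaluronan, oxidised and modified proteins, mannose-ended glycoproteins and immune complexes through receptors that are recycled from endosomes. STAB2 and LYVE1 bind hyaluronan, the mannose receptor MRC1 and the lectin CLEC4G bind sugars, and FCGR2B is the inhibitory Fc receptor that carries small immune complexes inside. Several of these receptors are shared with lymphatic endothelium, macrophages or platelets, so signal at their genes could come from more than 1 cell type.

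Peak lists held 19464 to 144197 peaks from 10.1 to 59.1 M tags (M for mega). The liver endothelial libraries had 37022 and 47334 peaks in the adult and 66025 and 47685 at P6. The third of the E12 heart endothelial libraries stood apart with 39096 peaks and 10.1 M tags, the fewest of any library. Names of the read files recorded in the peak lists fell into 7 kinds by their suffixes, and what the suffixes stand for was not given. The 4 liver endothelial libraries were of 1 kind, shared by no adult endothelial library of another organ and at P6 by the 2 kidney libraries only, so organ and kind of read file largely cannot be told apart, and values against kidney are given beside the main ones. Summed over 12 endothelial markers, peak signal was 818 and 850 in adult liver endothelial libraries against 70.5 and 152 in liver input. Hepatocyte markers (10 genes, Alb among them) ran the other way, at 114 and 127 against 257 and 402.

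Start sites of the receptors differed in how widely they were open. Promoter sequences of 4 of them are shown because they span that range: Stab1 was open in nearly all endothelium, Clec1b and Clec4g in liver endothelium but in no other adult or P6 endothelial library, and Fcgr2b was seldom open at its start site. Each sequence runs 5′ to 3′ on the gene's strand, from 250 bases before to 50 bases after the RefSeq start, GRCm38.p6 (mm10): Stab1 at chr14:31168592-31168891, Clec4g at chr8:3720602-3720901 and Fcgr2b at chr1:170976022-170976321 on the minus strand, and Clec1b at chr6:129397047-129397346 on the plus strand. Capitals mark every match on either strand to 3 short motifs, GGAAG or its reverse complement CTTCC (core of ETS factor sites), GATAA or the reverse TTATC (core of GATA sites), and TGCTGA or the reverse TCAGCA (core of MAF sites). Where matches adjoin or overlap, as they do in Stab1 and Clec4g, the capitals run together.
Stab1: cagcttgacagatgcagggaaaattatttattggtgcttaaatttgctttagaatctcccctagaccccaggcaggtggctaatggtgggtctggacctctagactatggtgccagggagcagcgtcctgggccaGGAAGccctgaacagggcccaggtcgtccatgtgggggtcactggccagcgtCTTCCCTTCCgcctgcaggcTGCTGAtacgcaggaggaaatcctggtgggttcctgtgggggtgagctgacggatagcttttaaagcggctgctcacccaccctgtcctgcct
Clec4g: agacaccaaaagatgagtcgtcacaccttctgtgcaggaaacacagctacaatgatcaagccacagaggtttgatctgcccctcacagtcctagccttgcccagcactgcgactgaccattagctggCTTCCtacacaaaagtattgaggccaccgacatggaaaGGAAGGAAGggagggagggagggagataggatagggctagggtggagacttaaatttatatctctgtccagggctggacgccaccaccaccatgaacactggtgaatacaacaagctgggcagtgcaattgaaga
Clec1b: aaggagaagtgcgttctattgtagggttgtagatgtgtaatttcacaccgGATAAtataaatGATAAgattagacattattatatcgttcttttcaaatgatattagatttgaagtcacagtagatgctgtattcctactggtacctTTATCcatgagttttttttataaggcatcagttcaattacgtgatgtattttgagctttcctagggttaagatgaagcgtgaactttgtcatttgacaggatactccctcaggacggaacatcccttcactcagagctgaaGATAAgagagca
Fcgr2b: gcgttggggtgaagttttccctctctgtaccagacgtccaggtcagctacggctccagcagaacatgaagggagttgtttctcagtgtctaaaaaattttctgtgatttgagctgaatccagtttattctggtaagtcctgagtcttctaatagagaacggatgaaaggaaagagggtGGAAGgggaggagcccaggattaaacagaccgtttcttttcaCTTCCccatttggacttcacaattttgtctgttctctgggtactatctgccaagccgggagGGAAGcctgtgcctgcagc

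Of the 6 receptors with a promoter in the RefSeq table (Stab1, Stab2, Mrc1, Clec4g, Fcgr2b and Clec1b), 5 held GGAAG, as did 72.1% of 17492 promoters of the same length. Clec1b had no GGAAG and was the only member with GATAA, present 4 times, against 23.0% of all promoters holding it at least once. TGCTGA was found in Stab1 alone among the 6, and in 17.9% of all promoters. A peak lay over the Clec4g promoter window in 4 of 4 liver endothelial libraries, 0 of 22 adult and P6 endothelial libraries of other organs, 1 of 11 at E12 and 0 of 29 input libraries. For Clec1b, the corresponding counts were 4 of 4, 0 of 22, 7 of 11 and 0 of 29. Over all promoters, 7 of 17492 (0.04%) had a peak in all 4 liver libraries and none in the 22 others: Clec4g, Clec1b, Tfec, Spic, Adgrg3, Gm13305 and Il11ra2. Stab1 was covered in 4 of 4 liver, 21 of 22 other and 11 of 11 E12 endothelial libraries. Stab2 and Mrc1 fell between these, each covered in 4 of 4 liver libraries, in 5 and 4 of the 22 others and in 8 and 9 of the 11 at E12. The Fcgr2b window was covered in 1 of 4 liver, 1 of 22 other and 0 of 11 E12 endothelial libraries, but in 9 of 29 inputs.

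Accessibility of a whole gene was summarised as peak signal: the pileup height of each peak times its bases within the gene or 50 kb of it, divided by 1000, per 10 M tags. A value of 0 means that no peak was called, and a bulk value cannot tell a larger share of nuclei with an open locus from more open chromatin in each. In adult endothelium, Fcgr2b, Stab2, Oit3, Mrc1, Clec4g and Clec1b were higher in liver than in the mean of the 5 other organs, and no member was lower. This was 6 of 9 members, where 1.86% of all genes tested were called higher and 0.675% lower (limma, Benjamini-Hochberg adjusted p under 0.05 and a log2 difference of at least 1). The members' median log2 difference was 2.37 against 0 over all genes. In 7 of 9, both liver libraries lay above all 10 others, an arrangement that 5.49% of genes showed.

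**Figure D1:**
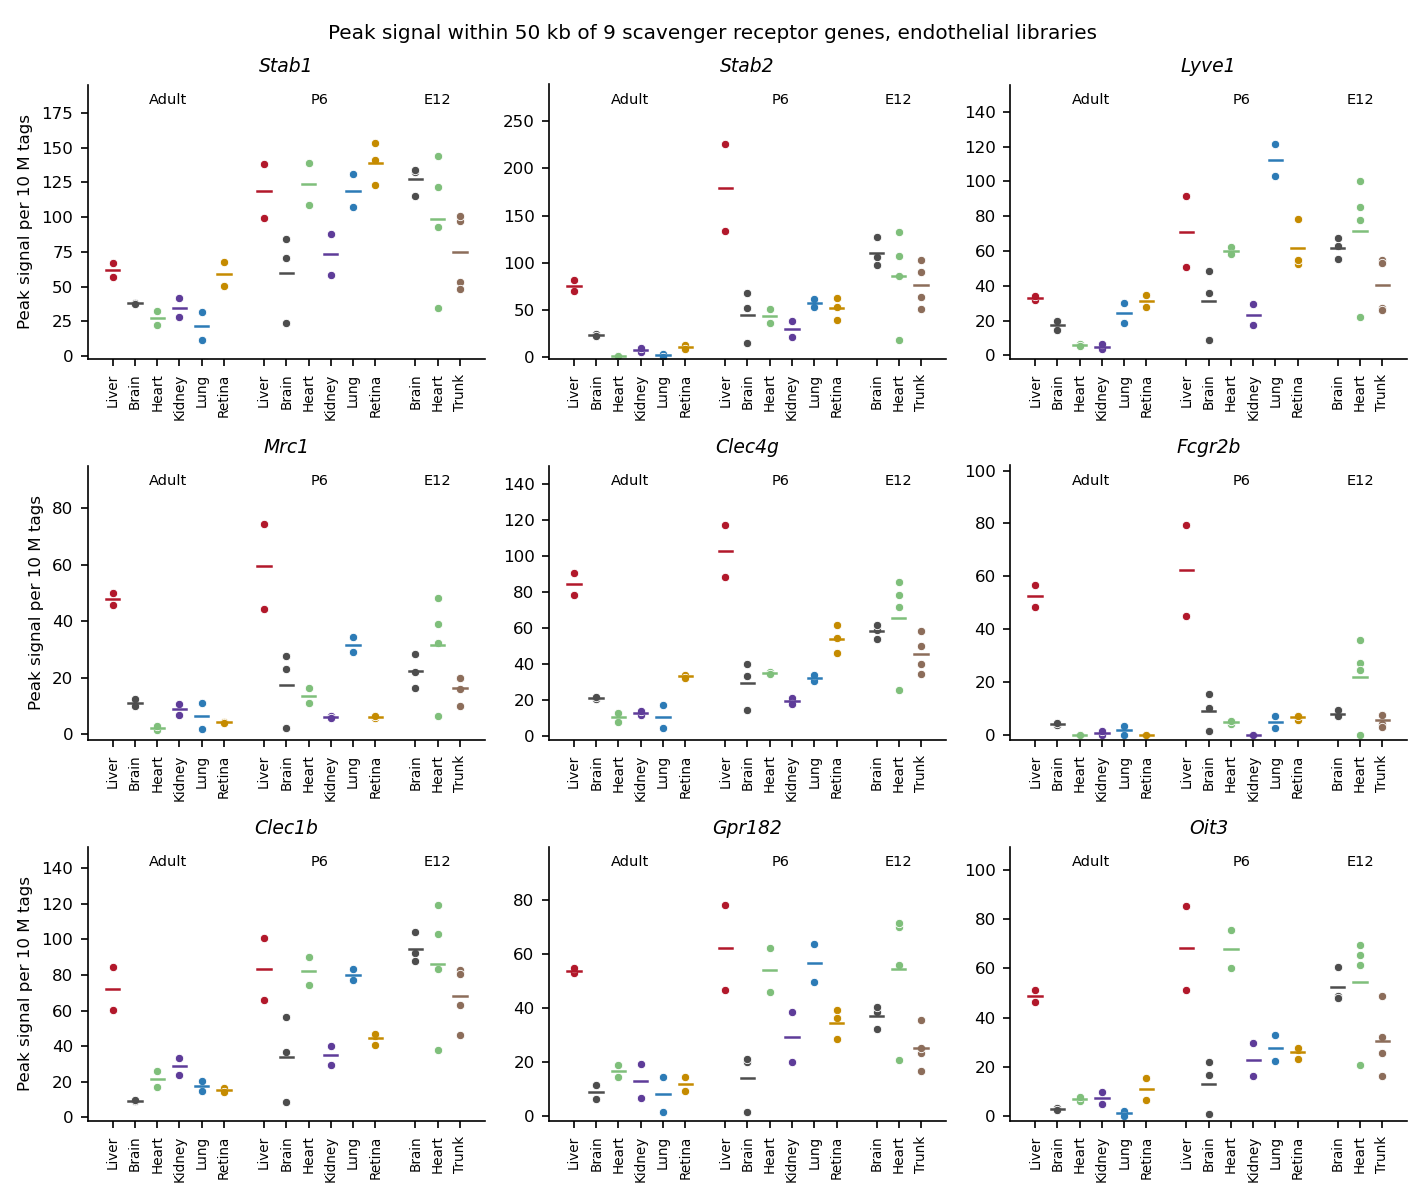
Peak signal per 10 M tags within 50 kb of each of the 9 receptor genes (y axis) in every endothelial library, grouped by organ and age (x axis). Points are libraries and short bars are group means; the 2 adult liver libraries lie above all other adult libraries for every gene but Stab1 and Lyve1, and all 9 windows have signal in E12 brain, heart and trunk.

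Among the hyaluronan and link-protein receptors, Stab2 (the main endocytic hyaluronan receptor of the sinusoid, chr10:86841194-87008038) had peak signals of 69.8 and 81.7 in adult liver endothelium. The 10 other adult endothelial libraries ranged from 0 to 24.5 (median 6.93), the highest in brain. No other library came near the liver pair, and the log2 difference was 3.57 (SE 0.70, adjusted p = 0.000899). Its paralog Stab1 (chr14:31139017-31168651) read 67.2 and 57.1 in liver against 11.8 to 67.7 elsewhere (median 35.1). A retina library was as high as liver, so the groups overlapped, and the log2 difference of 0.88 (SE 0.50, adjusted p = 0.632) did not pass. Lyve1 (a hyaluronan receptor best known from lymphatic vessels, chr7:110850607-110862953) read 31.6 and 34.0 in liver, within a range of 3.60 to 34.7 elsewhere. Retina reached liver values and lung came close, and the difference of 1.25 (SE 0.56, adjusted p = 0.368) did not pass.

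Mrc1 (the mannose receptor, chr2:14229414-14332023) had 45.9 and 50.0 in adult liver endothelium against 1.41 to 12.5 in the other organs (median 5.61). The groups did not overlap, with a log2 difference of 2.93 (SE 0.69, adjusted p = 0.00798). Clec4g (the liver and lymph node lectin LSECtin, chr8:3707066-3720695) had 78.2 and 90.4 against 4.44 to 34.2, where both retina libraries were the highest of the rest. Its difference was 2.37 (SE 0.47, adjusted p = 0.00105). Clec1b (CLEC-2, the podoplanin receptor of platelets that is also found on sinusoidal endothelium, chr6:129397297-129405413) had 60.5 and 84.3 against 8.94 to 33.6. Kidney was next to liver for this gene, and the difference was 1.99 (SE 0.55, adjusted p = 0.0318). This call was lost without the first heart (adjusted p = 0.0536), the first kidney (0.05003) or either liver endothelial library (0.280 and 0.675).

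Fcgr2b (chr1:170960558-170976071) showed the largest liver difference of the 9: 48.2 and 56.9 in liver, against 0 to 4.23 elsewhere. Of the 10 other libraries, 6 had no peak in its window at all, so the fitted difference of 4.95 (SE 0.81, adjusted p = 7.32e-05) depends on the value of 1 added before taking logs. Gpr182 (an atypical chemokine receptor of sinusoidal and lymphatic endothelium, chr10:127749602-127751798) read 52.7 and 54.6 against 1.41 to 19.1. Its groups did not overlap, yet the difference of 2.33 (SE 0.73, adjusted p = 0.0771) missed the threshold. Oit3 (a secreted zona pellucida-domain protein used as a marker of liver endothelium, chr10:59422960-59441779) read 51.3 and 46.4 against 0 to 15.6. Oit3 did pass, with a difference of 3.20 (SE 0.63, adjusted p = 0.000916).

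The call for Fcgr2b was kept whichever library was left out (log2 difference 4.73 to 5.16). The other calls were lost without either adult liver endothelial library, in fits that rest on a single liver library. With each library left out in turn, the log2 differences ran from 3.35 to 3.79 for Stab2, 2.73 to 3.13 for Mrc1 and 3.04 to 3.36 for Oit3. They ran from 2.20 to 2.55 for Clec4g and 1.75 to 2.22 for Clec1b. Against adult kidney alone, whose kind of read file also differs from liver's, 2 of 9 members were called, Fcgr2b (log2 difference 5.13, adjusted p = 0.00397) and Clec4g (2.61, adjusted p = 0.0140). Stab2 (3.23), Oit3 (2.64), Lyve1 (2.54), Mrc1 (2.34), Gpr182 (2.16), Clec1b (1.30) and Stab1 (0.85) did not pass there. The share of all genes called against kidney is not given here.

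At P6 the same comparison called 2 of 9 members, Fcgr2b and Clec4g, where 1.03% of genes were called higher and 2.02% lower. With an equal number of top peaks 5 of 9 were called, and with each library centred on its median, an alternative chosen after seeing the data, 7 of 9. With covered bases, or peaks of −log10 q of at least 5, fewer than 2 were called. The shares of all genes called under these settings are not given here, so these counts cannot be set against them. Fcgr2b had 79.6 and 45.1 in P6 liver endothelium against 0 to 15.4 in 12 other libraries, with a log2 difference of 3.79 (SE 0.80, adjusted p = 0.00193). Clec4g had 117 and 88.3 against 14.5 to 61.7, and a difference of 1.65 (SE 0.46, adjusted p = 0.0319). Both genes separated liver from every other library, but neither call held without either P6 liver library, in fits that rest on a single liver library. With each library left out in turn, the differences ran from 3.39 to 4.20 for Fcgr2b and 1.45 to 1.85 for Clec4g.

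Stab2 at P6 had 226 and 134 in liver against 14.9 to 67.4, and Mrc1 had 74.3 and 44.4 against 2.05 to 34.2. These also did not overlap, with differences of 2.01 (SE 0.69, adjusted p = 0.110) and 2.23 (SE 0.69, adjusted p = 0.0593) that missed the threshold. In all, 4 of 9 members had both P6 liver libraries above the 12 others, against 1.57% of genes. The other 5 were shared with other young organs. Lyve1 was highest in P6 lung (121.8 and 103, liver 91.5 and 50.8), Stab1 in P6 retina (123, 141 and 153, liver 138 and 99.5), and Clec1b (90.3 and 74.5) and Oit3 (75.4 and 60.2) in P6 heart overlapped liver (Clec1b 101 and 66.03, Oit3 85.5 and 51.4). P6 Gpr182 in lung (63.7 and 49.3) and heart (62.2 and 45.9) overlapped the liver values of 77.9 and 46.4. The members' median difference at P6 was 1.39, while the median of all genes lay at -0.27. Against P6 kidney, which shares the liver's kind of read file name, the same 2 genes were called: Fcgr2b (adjusted p = 0.000589), listed at 0 in both kidney libraries so that its difference depends on the value added, and Clec4g by 2.33 (adjusted p = 0.0479). The share of all genes called against P6 kidney is not given here.

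**Figure D2:**
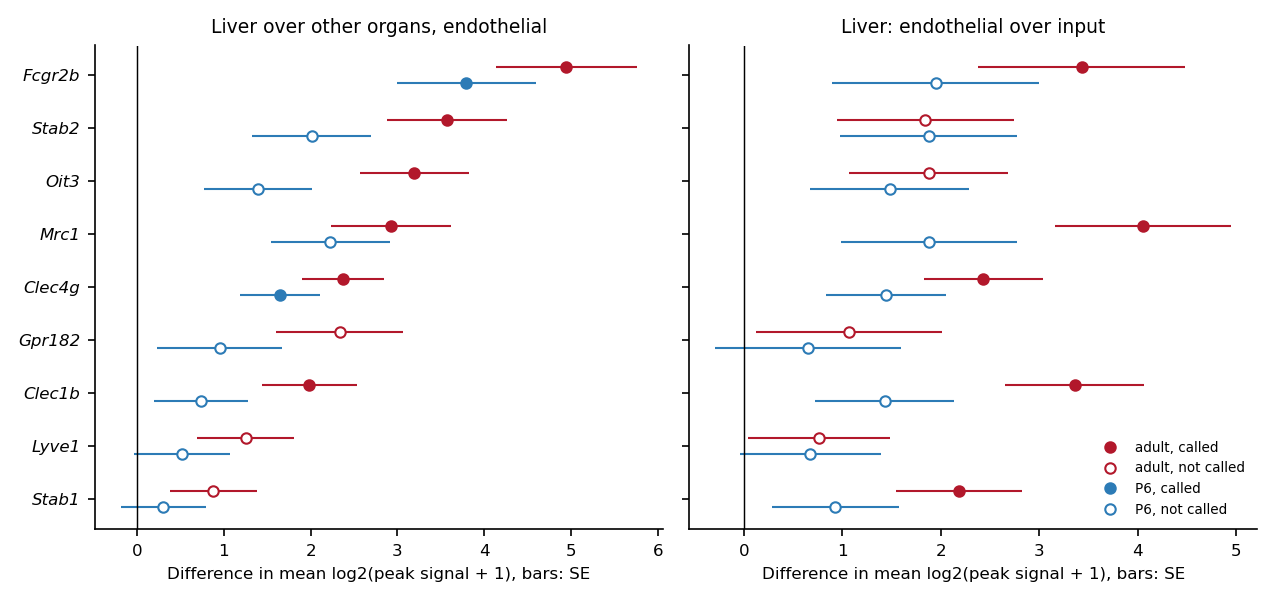
Differences in mean log2(peak signal + 1) for the 9 genes (rows), liver over the 5 other organs in endothelial libraries (left) and endothelial over input libraries within liver (right). Red is adult and blue is P6, bars are standard errors, and filled points passed the limma threshold; in the left panel 6 genes are filled in the adult and 2 at P6, in the right panel 5 and 0.

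Within the liver, endothelial libraries were set against liver input. The kind of read file of the liver endothelial libraries was shared by 0 of the 2 adult liver inputs and by both P6 liver inputs, so in the adult the cell fraction and the kind of read file cannot be told apart. In the adult, Mrc1, Fcgr2b, Clec1b, Clec4g and Stab1 were higher in endothelium, which was 5 of 9 members where 10.4% of genes were called higher. The adult liver endothelial values are those above. Mrc1 had 0 and 7.68 in adult liver input, Fcgr2b had 1.34 and 9.50, Clec1b 2.56 and 13.0, Clec4g 9.72 and 22.2, and Stab1 9.31 and 17.7. Every input value lay below both endothelial values. Log2 differences were 4.05 (SE 0.89, adjusted p = 0.00205) for Mrc1, 3.43 (SE 1.05, adjusted p = 0.0241) for Fcgr2b and 3.36 (SE 0.71, adjusted p = 0.00125) for Clec1b. Clec4g differed by 2.43 (SE 0.61, adjusted p = 0.00601) and Stab1 by 2.18 (SE 0.64, adjusted p = 0.0191). These sizes moved with single liver inputs. With each library left out in turn, they ran from 2.49 to 5.61 for Mrc1, 2.35 to 4.51 for Fcgr2b and 2.37 to 4.35 for Clec1b. The ranges were 1.88 to 2.99 for Clec4g and 1.76 to 2.61 for Stab1. Stab2 (13.2 and 31.0 in input, difference 1.84) and Oit3 (8.99 and 17.4, difference 1.88) did not pass, nor did Gpr182 (21.8 and 28.9, difference 1.07) or Lyve1 (13.3 and 26.7, difference 0.76). Over all genes the median was 0.77, and the first of the adult liver inputs had only 25880 peaks. Without that library no member was called, and without either adult liver endothelial library 3 and 2 were.

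At P6 no member passed against liver input (limma, 0.945% of genes called higher and 2.48% lower), with differences from 0.65 for Gpr182 to 1.95 for Fcgr2b and 4 of 9 at an unadjusted p under 0.05. Without P6 liver input 4 the difference was 0.62 for Fcgr2b and 0.90 for Stab2. Without input 3 it was 3.27 and 2.86. Centring each library on its median, an alternative chosen after seeing the data, called 6 of 9. The shares of all genes called with centring, or at an unadjusted p under 0.05, are not given here. The input numbered 3 was the higher of the pair at every member: Stab1 read 111 there and 33.4 in input 4, Fcgr2b 38.5 and 5.32, and Stab2 92.7 and 23.1. Those inputs held 77560 and 40943 peaks.

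The difference between organs in the endothelial enrichment was also tested, as liver endothelium over its input beyond the mean of the 5 other organs; it rests on the same adult liver inputs, whose kind of read file differed. In adults 7 of 9 members were called higher, all but Lyve1 and Gpr182, but so were 32.9% of all genes, whose median was 1.42, while 0.874% were lower. Fcgr2b (5.20, SE 1.17, adjusted p = 0.00217) and Mrc1 (4.93, SE 1.00, adjusted p = 0.000877) were largest. Without the first adult liver input library no member was called. At P6 none was called (0.793% of genes; 4 of 9 at an unadjusted p under 0.05 by limma), the largest being Fcgr2b at 3.21 (SE 1.128, adjusted p = 0.201). Centring on the library median called 5 of 9 there, and an equal number of top peaks 1. The shares of all genes under these settings, or at an unadjusted p under 0.05, are not given here.

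Endothelium was also compared with input averaged over all 6 organs. In adults Stab2 was lower in endothelium than in input by 1.14 on the log2 scale (SE 0.40, adjusted p = 0.0370), as were 12.1% of genes, and no member was higher, against 0.883% of genes. The Stab2 call rested on single libraries: of 20 left out in turn, 9 kept a member called lower, 8 called 1 member higher instead, and 3 called none (either brain endothelial library or the second retina endothelial library left out). At P6 Clec1b alone was higher in endothelium, by 1.09 (SE 0.26, adjusted p = 0.00182), where 1.76% of genes were called higher and 8.31% lower. Clec1b in adults differed by 0.97 (SE 0.31, adjusted p = 0.0238), just under the size required.

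Between adult and P6 liver endothelium no member was called (limma, 0 of 9, and 0 at an unadjusted p under 0.05), which with 2 libraries at each age does not show that the ages were alike. The adult Stab2 values of 69.8 and 81.7 lay below the P6 values of 226 and 134. Differences ran from -1.19 for Stab2 to -0.16 for Gpr182, while the median of all genes was -0.70, and 0.00472% of genes were called higher and 0.359% lower in the adult.

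At E12, when liver was not sampled on its own, the windows of all 9 genes held peak signal in brain, heart and trunk endothelium, although the Fcgr2b and Clec4g start sites had a peak in 0 and 1 of 11 libraries. A window signal can come from a neighbouring gene. Stab2 had 97.5, 106 and 127 in E12 brain, against 24.5 and 21.96 in adult brain, and ranged from 18.1 to 132 in E12 heart and from 50.6 to 103 in E12 trunk. Clec1b had 92.1, 88.0 and 104 in E12 brain, against 8.94 and 9.93 in adult brain. Oit3 had 48.6, 60.6 and 47.8 in E12 brain, where adult brain had 3.09 and 2.61. The E12 brain lists held 101322 to 111142 peaks against 38465 and 45094 in adult brain, and brain was not tested across ages. Fcgr2b had 7.50, 7.08 and 9.21 in E12 brain and 4.02, 2.80, 7.27 and 7.61 in trunk, and it reached 27.0, 24.3 and 35.7 in 3 of the 4 heart libraries. The fourth, the shallow library named above, had no peak at Fcgr2b. Trunk over brain and heart over brain called no member (limma; 0.0189% and 0.963% of genes called higher, 0.123% and 0.553% lower; no member had an unadjusted p under 0.05). Trunk over brain differences were -0.85 to -0.37, beside a median of -0.65 over all genes. Read processing may also differ by organ at E12, and its part in these differences was not tested.

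Peaks were next split into 364214 regions, the stretches under a peak in at least 2 libraries, of which 330 lay within 50 kb of a member. In adult endothelium 63 of the 330 (19.1%) were higher in liver than in other organs and 1 was lower, where 2.74% of all regions were higher and 0.265% lower (limma). At P6 61 (18.5%) were higher and 5 lower, against 2.75% of all regions higher and 2.02% lower. Both ages shared 46 regions, 73.0% of the adult and 75.4% of the P6 set. The share of all regions higher at both ages is not given here, so this overlap cannot be called particular to the receptors. Of the 46, 23 overlapped the receptor gene, 10 lay in a neighbouring gene and 13 between genes. They were open in all 4 liver endothelial libraries in 45 cases. Of the 46, 7 had a peak in fewer than 2 libraries outside liver endothelium, as did 11 of the 63 and 10 of the 61, so these entered only through liver and had to differ. Between ages, 4 of the 330 were higher in adult than in P6 liver endothelium and 13 lower, against 0.2% and 1.23% of all regions. Peak lists give 0 where no peak was called, which makes the spread within groups small, so counts of libraries with a peak are given beside the differences.

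Of the 330 regions, 16 had a peak in all 4 liver endothelial libraries and in 0 of the 22 others of adult and P6. Over all regions this share was 0.357%. Fcgr2b held 6 of the 16 and Clec4g 3, Stab2 had 2, Stab1, Lyve1, Mrc1, Clec1b and Oit3 had 1 each, and Gpr182 had none. E12 and input libraries do not enter this count, and the Clec1b start site among the 16 had a peak in 7 of 11 E12 libraries. Of the 330, 22 had a peak in fewer than 2 libraries outside liver endothelium, so they entered only through liver. Some of these, at Stab1, Clec4g and Lyve1 for example, are among the 16, so their absence elsewhere was partly fixed by the filter. How many of the 16 entered only through liver is not given here. Of the 46 regions higher at both ages, 36 had a peak in at least 1 of the 11 E12 endothelial libraries and 20 in at least 6. The corresponding shares over all regions are not given here.

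At Fcgr2b the start site passed in neither comparison of liver with other organs. The region over it, chr1:170975516-170976305, was open in 1 of 4 liver endothelial libraries and in 3 of 4 liver inputs, with log2 differences of 0.75 in the adult and -0.07 at P6 that did not pass. Against liver input it differed by -1.76 at P6 (SE 0.43, adjusted p = 0.00331), lower in endothelium, as were 4.44% of all regions. There, 8 regions were higher in liver at both ages, inside the gene and beyond its end. The largest, chr1:170956414-170956969, lay 3.6 kb past the gene, with a peak in 4 of 4 liver, 0 of 22 other and 2 of 11 E12 endothelial libraries. Its signal was 9.78 and 9.42 in adult liver and 12.5 and 7.31 in P6 liver, a difference of 3.41 at each age (SE 0.28 and 0.27, adjusted p = 3.29e-12 and 1.2e-12).

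Clec4g was open at its start site in liver. The region chr8:3720393-3720943 had signals of 8.77 and 7.72 in adult and 8.81 and 4.06 in P6 liver endothelium and no peak in any of 22 other endothelial or 29 input libraries. This region reached the 2-library minimum only through liver, so no difference is given for it. The largest Clec4g difference was in a region upstream, chr8:3736821-3737604, 16.1 kb outside the gene and not in another gene, with 19.0 and 17.0 in adult and 20.9 and 15.4 in P6 liver. A peak lay there in 1 of 22 other and 0 of 11 E12 endothelial libraries, but in 3 of 4 liver inputs, and the differences were 4.14 (SE 0.30) and 4.25 (SE 0.29). The Clec4g window also holds Cd209a, so a region outside the gene cannot be assigned to one of them.

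Clec1b resembled Clec4g at its start site, chr6:129397175-129397669, a region that also overlaps Clec12b. It read 6.57 and 7.41 in adult and 5.97 and 3.55 in P6 liver and had no peak in the 22 others or in input. Unlike Clec4g, it was open in 7 of 11 E12 libraries. It was higher by 2.996 (SE 0.33) and 2.49 (SE 0.33). The largest difference, 3.94 (SE 0.38) in the adult, was at chr6:129369355-129370136, 27.2 kb outside the gene, with a peak in 2 of 22 other and 2 of 11 E12 endothelial libraries and 2 of 4 liver inputs. Only 2 Clec1b regions were higher at both ages, although 7 were in the adult. Clec12a, Clec12b, Clec9a and Clec1a, lectin genes of myeloid and endothelial cells, share this window.

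**Figure D3:**
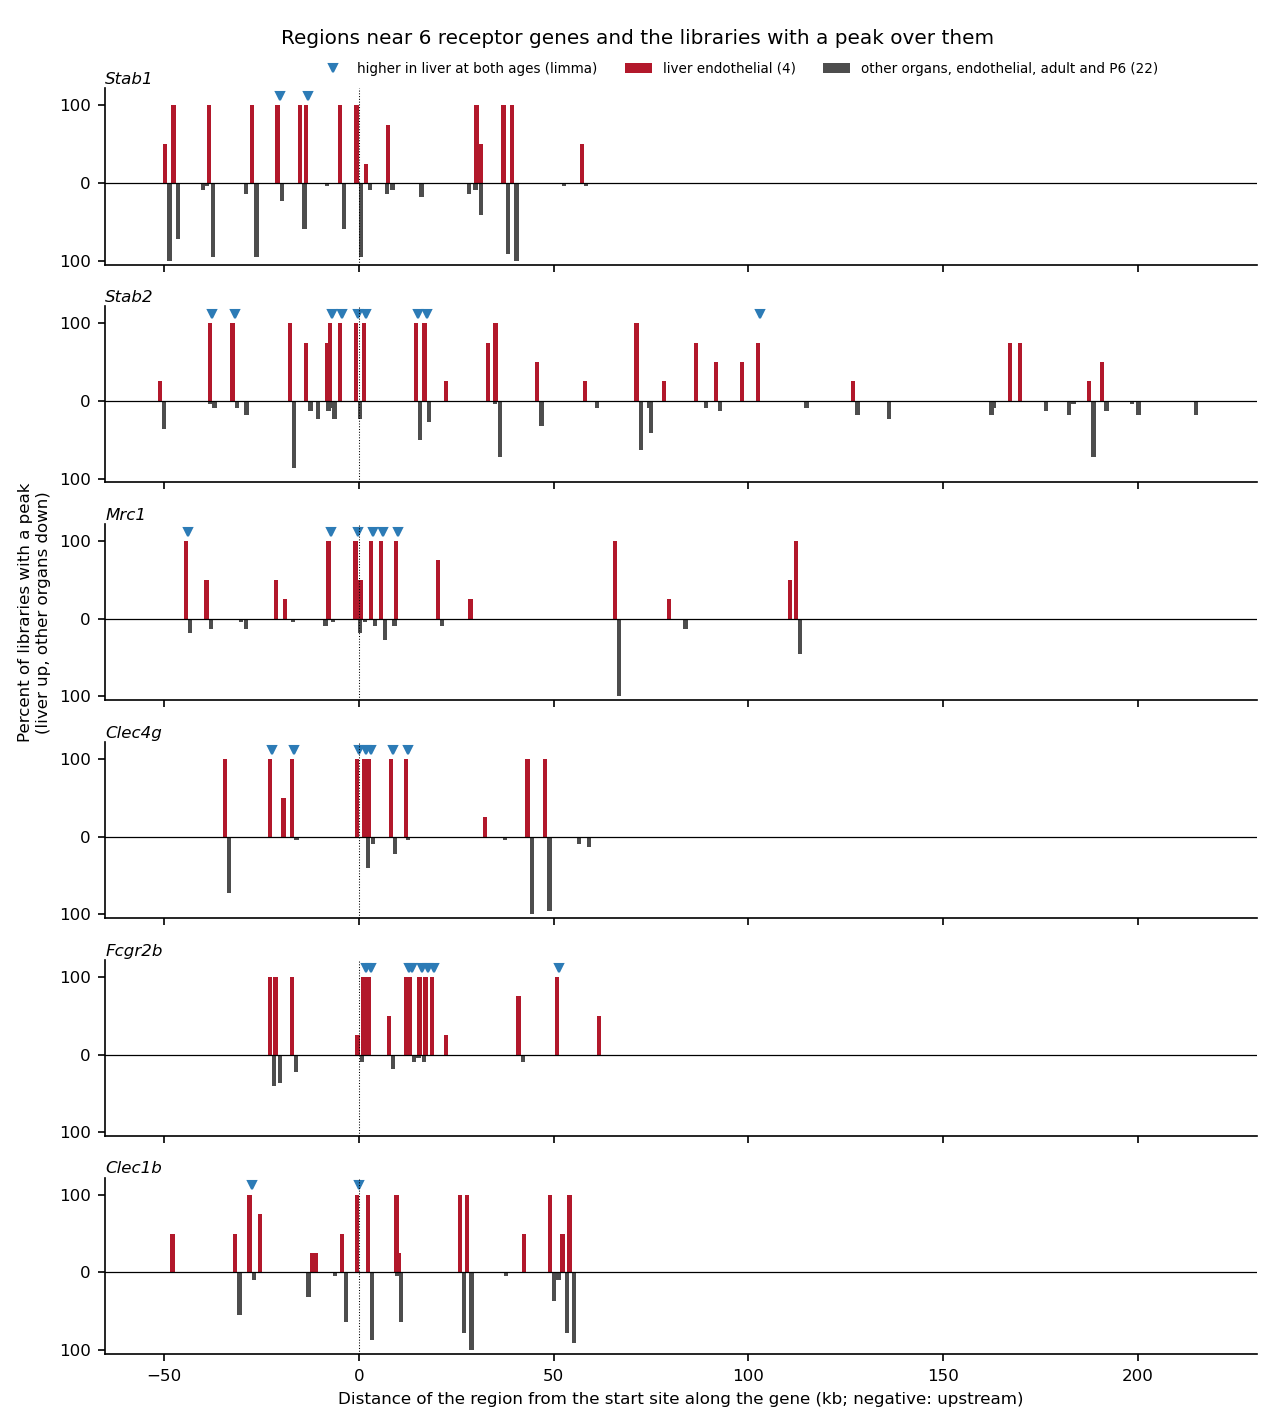
Regions near 6 of the receptors by distance from the start site along the gene (x axis, kb, negative upstream), with the percent of the 4 liver endothelial libraries that had a peak there (red, upward) and of the 22 adult and P6 endothelial libraries of other organs (grey, downward; drawn just to the right of its red partner). Triangles mark regions higher in liver at both ages; at Fcgr2b 8 triangles sit within and past the gene rather than at the start site, while the Stab1 start site is open in both sets.

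At Stab1 the start site, chr14:31168259-31169149, had 7.11 and 5.98 in adult liver, within the other organs' values of up to 6.44, and was open in 21 of 22 other libraries. Its adult difference of 0.89 (SE 0.49) did not pass. The largest Stab1 difference was at chr14:31172585-31173396, 3.9 kb from the gene and inside the neighbouring gene Nisch, by 2.75 (SE 0.63, adjusted p = 0.00388) in the adult and 1.78 (SE 0.62) at P6, where it did not pass. That region was open in 13 of 22 other libraries. A single Stab1 region, chr14:31181544-31181915, had a peak in all 4 liver endothelial libraries and none in the 22 others, 13.1 kb upstream and also in Nisch. It had a peak in 1 library outside liver endothelium, so it entered only through liver. At Stab2 the start site, chr10:87007821-87008437, read 4.98 and 5.41 in adult liver and had no peak in any other adult library, but was open in 5 of 12 other P6 libraries and 8 of 11 at E12. It was higher by 2.63 (SE 0.42) in the adult and 2.47 (SE 0.41) at P6. Inside Stab2, 17.4 kb from its start, chr10:86989840-86991266 reached 13.4 and 11.9 in adult and 30.9 and 22.04 in P6 liver and was open in 11 of 11 E12 endothelial libraries. This was the largest Stab2 difference, 3.77 (SE 0.54) in the adult and 3.76 (SE 0.53) at P6. In all, 9 Stab2 regions were higher in liver at both ages, against 2 at Stab1.

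Mrc1 had 6 such regions. Its start site, chr2:14228643-14229530, read 5.25 and 5.89 in adult and 10.0 and 8.38 in P6 liver, was open in 4 of 22 other libraries and 9 of 11 at E12, and was higher by 2.60 (SE 0.44) and 2.90 (SE 0.44). An intronic or exonic position was not assigned, as no exon map was used. The largest difference was 10.0 kb inside the gene, at chr2:14239124-14239746, with 8.24 and 8.56 in adult and 13.0 and 6.76 in P6 liver and no peak in the 22 others. There Mrc1 was higher by 3.23 (SE 0.35) and 3.38 (SE 0.34), and 2 of 4 liver inputs had a peak.

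Lyve1, Gpr182 and Oit3 carry no strand in the table used, so their ends are named without a direction. One end of Oit3, chr10:59441669-59442234, read 11.3 and 9.85 in adult and 17.3 and 10.7 in P6 liver, was open in 8 of 22 other and 10 of 11 E12 libraries, and was higher by 3.24 (SE 0.35) and 2.56 (SE 0.35). Its largest difference lay 5.2 kb away in the neighbouring gene Mcu, at chr10:59447009-59447891, by 3.30 (SE 0.37) and 1.77 (SE 0.37). A peak lay there in 8 of 22 other and 11 of 11 E12 endothelial libraries, and P6 heart reached 8.95, within the P6 liver values of 13.2 and 7.45. One end of Lyve1, chr7:110862675-110863339, was higher by 1.97 (SE 0.43) and 2.09 (SE 0.42) with 9 of 22 other libraries open. The largest Lyve1 difference was in Mrvi1, at chr7:110876836-110877708, by 2.32 (SE 0.29) in the adult. At P6 its difference of 0.78 (SE 0.29) did not pass, and it was open in 14 of the 22 other libraries. Both ends of Gpr182 were open in most endothelium, in 18 and 16 of the 22 others and in 11 of 11 at E12. Adult liver values of 8.12 and 6.96 at the first of these lay within those of other organs, which reached 9.27. The ends were higher in adult liver by 1.64 (SE 0.46) and 1.90 (SE 0.44) but not at P6 (0.84 and 0.62). The largest Gpr182 difference was 2.8 kb outside the gene, at chr10:127754591-127756629, with 26.2 and 22.9 in adult liver and a difference of 3.29 (SE 0.66), and this too was open in 14 of 22 others.

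A wider list of 32 other scavenger and endocytic receptors was counted in the same way. In adult liver endothelium 3 of the 32 were higher, against 1.86% of all genes, and none lower: Msr1, the class A macrophage scavenger receptor (log2 difference 3.35), and the lectins Cd209a (5.00) and Cd209b (2.71). Their median was 0.35. At P6 4 were higher, against 1.03% of all genes: Cd209a (3.28), Cd209b (2.76), Clec4f (2.61) and Vsig4 (1.85), with a median of -0.15. Cd209a shares the Clec4g window, so the 2 are not separate measurements. Of 30 other genes used to describe sinusoidal identity, 12 were higher in the adult, among them the transcription factors Maf, Meis2 and Tfec and the angiocrine genes Wnt2, Bmp2 and Hgf, and the median was 1.45. At P6 5 were higher, Tfec, Ehd3, Cd209b, Wnt2 and Adam23, with a median of 0.86. Cd36 and Cd209b are in both lists. The difference between these lists and the receptors was not tested.

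Marker loci of other cell types were summed in the same libraries. Over 7 Kupffer cell markers, peak signal in adult liver endothelium was 62.1 and 70.8 against 16.1 and 40.9 in liver input and 15.0 to 114 in other organs, with Timd4, Cd5l and Marco at 0 in both liver endothelial libraries, and Timd4 and Marco also at 0 in both adult liver inputs. None of the 7 was called higher in adult liver endothelium, where Clec4f differed by 1.88 (SE 0.75, adjusted p = 0.249), and 2 were at P6 (Clec4f and Vsig4). Of 10 hepatocyte markers none was called in adult liver endothelium over other organs, with 4 at an unadjusted p under 0.05 (limma) and sums of 114 and 127 against 33.2 to 176 elsewhere. At P6 Alb was higher and Cyp2e1 lower, with differences within the list from -2.62 to 2.78 and sums of 177 and 250 against 65.7 to 389. Of 15 macrophage markers 2 were higher in the adult, P2ry12 and Pf4, with sums of 299 and 325 against 112.2 and 209.6 in liver input and 107 to 695 in other organs, and with Lyz2 at 0 in both liver libraries. Pericyte markers (6 genes) summed to 133 and 139 in adult liver endothelium against 19.1 and 47.4 in liver input and 8.06 to 84.4 elsewhere. The neighbouring genes Kcnj8 and Abcc9 were higher there, and Rgs5 was at 0 there and in both adult liver inputs. Of 7 platelet markers, which bear on Clec1b, Ppbp and Pf4 were higher in the adult, with sums of 158 and 161 against 39.0 and 88.7 in liver input and 28.4 to 256 in other organs. Pf4 is in both the macrophage and the platelet list, and whether the Ppbp and Pf4 windows share signal was not examined. Over all genes, 1.86% were called higher in adult liver endothelium than in other organs and 1.03% at P6. The part that cells of these types have in the receptors' signal was not tested.

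Over the 15 endothelial groups, the genes outside the members' windows whose profile was most like the members' mean were Ccr1 (r = 0.98), Tbc1d5 (0.97), Cyb5a (0.97), Bard1 (0.97) and Zfp994 (0.96). These are correlations across group means that share libraries and depth, given as a description. Each member's own correlation with the mean of the other 8 ran from 0.76 for Lyve1 to 0.92 for Clec4g.

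Transcripts of the receptors were read in brain, where the endothelium is no sinusoid. Barcodes were kept with at least 200 genes and at most 10% mitochondrial counts and counted as endothelial when at least 3 of Cdh5, Pecam1, Egfl7, Esam, Tie1 and Kdr were detected. This left 5644, 6347 and 3786 barcodes in the E9.5, E12.5 and E16.5 embryo, with median UMI counts of 7158.5, 10469 and 9017. The P8 cortex gave 4778 barcodes and the adult cortex 3154, with medians of 8468 and 4896. With 1 library per age there is no test. Intervals are 95% exact intervals, Poisson for UMI levels and binomial for shares of barcodes, and they cover counting error only. No doublet caller was run. Libraries shared 0 to 50 barcode sequences, most between E12.5 and E16.5, where 35 were endothelial in both.

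Clec1b was the most abundant of the 9 in brain endothelium at E9.5 and E12.5. It gave 218 CPM (UMIs per 1 M UMIs of the same barcodes) at E9.5 (214 to 222), 138 at E12.5 (136 to 141) and 23.8 at E16.5 (22.4 to 25.3), then 2.33 at P8 (1.96 to 2.75) and 1.29 in the adult (0.871 to 1.84). Each step down was larger than counting error. At E9.5 54.8% of endothelial barcodes held a Clec1b UMI, against 15.0% of barcodes with no gate gene, whose median depth was lower (1769 UMIs) and which held 1122 CPM of platelet markers. After thinning each barcode to 1000 UMIs, which left out 12 endothelial and 43 ungated barcodes, the shares were 18.3% and 9.21%. At E12.5 the thinned shares were 12.3% and 0.361%. In the adult, 0.793% of endothelial and 2.84% of ungated barcodes held one, so the adult share was no higher than the ungated one. The thinned shares were 0.190% and 1.39% at P8, again no higher in endothelial barcodes, and 2.11% and 0 of 51 ungated barcodes at E16.5, whose interval reached 6.98%. The Clec1b shares from E16.5 on thus could not be told from those of ungated barcodes, and at E16.5 these were too few to decide. Platelet markers in ungated barcodes were at 503 CPM at P8 and 392 in the adult, against 26.5 and 24.6 in endothelial barcodes. Ungated barcodes hold other cells, so they do not give a background free of Clec1b.

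Platelet and megakaryocyte markers, which accompany Clec1b in blood cells, also fell with age in these barcodes, from 737 CPM at E9.5 and 244 at E12.5 to 24.6 in the adult. Leaving out barcodes with 2 or more platelet-marker UMIs, Clec1b was at 209 CPM at E9.5, 133 at E12.5 and 0.580 in the adult. The part of platelets or their free RNA in the Clec1b counts was not tested.

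**Figure D4:**
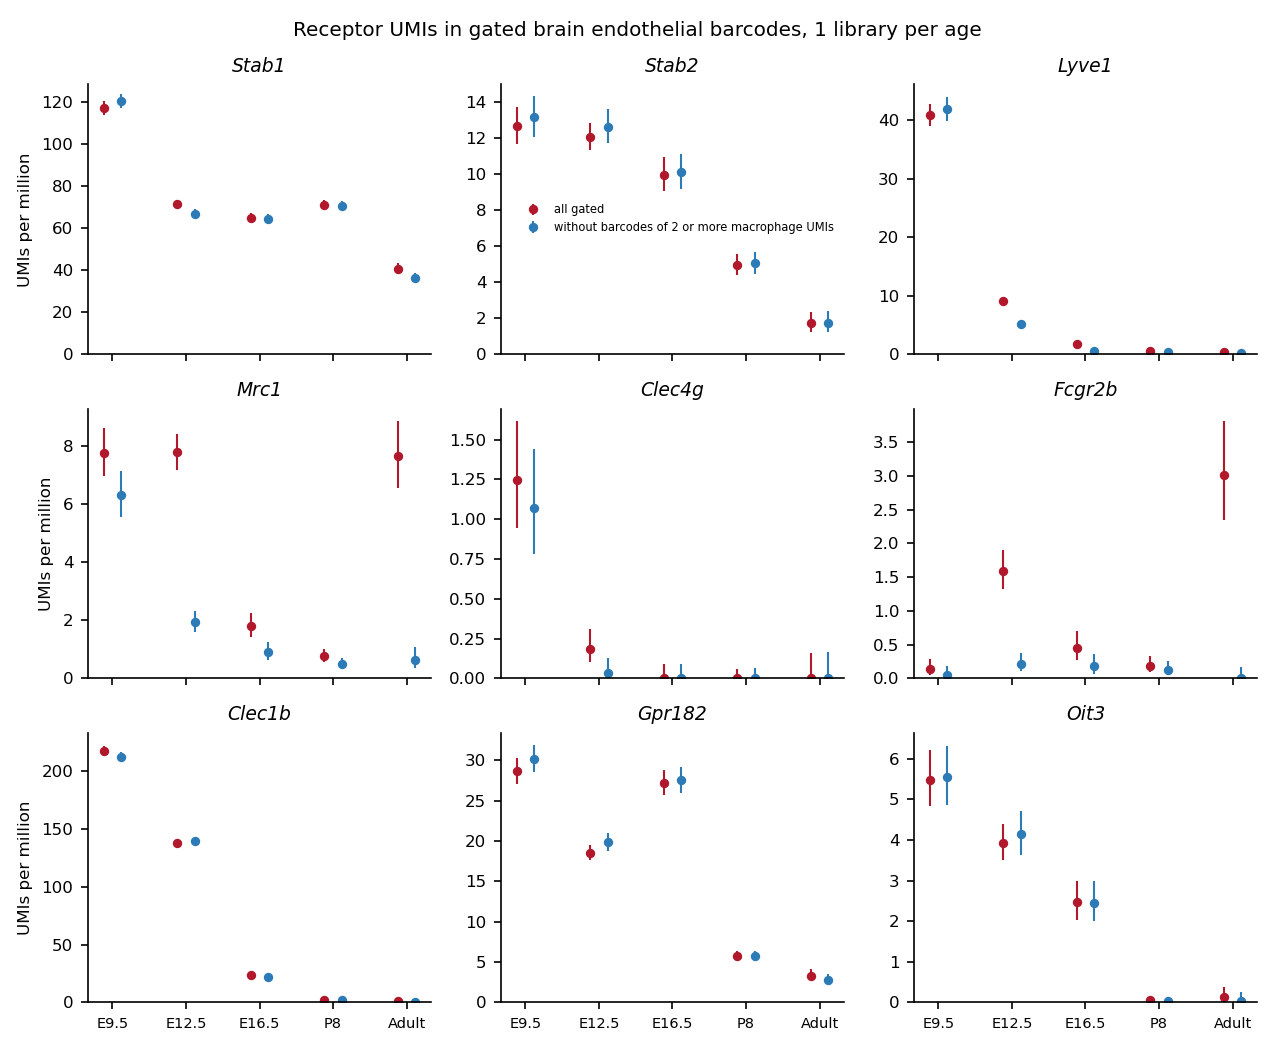
CPM (UMIs per 1 M UMIs) of each receptor (y axis) in gated brain endothelial barcodes at 5 ages (x axis), 1 library per age, with 95% exact Poisson intervals as bars. Red points are all gated barcodes and blue points leave out those with 2 or more macrophage-marker UMIs; Clec1b and Lyve1 are high at E9.5 and near 0 in the adult, and the adult Mrc1 and Fcgr2b values drop to near 0 without those barcodes.

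Stab1 was the most abundant of the 9 from E16.5 on. It gave 117 CPM at E9.5 (114 to 120) and then 71.8, 64.8 and 71.3 at the 3 middle ages, and 40.8 in the adult (38.3 to 43.5). At E9.5 the thinned share of barcodes with Stab1 was 10.2%, against 3.07% of ungated barcodes. At E12.5 the thinned shares were 6.02% and 8.30%, and in the adult 3.91% and 4.07% (20.1% and 3.98% unthinned, median depths 4896 and 2463.5 UMIs). They were 5.89% and 13.7% at E16.5 and 6.57% and 5.56% at P8, where the ungated interval ran from 1.53% to 13.6%. The Stab1 share was thus above the ungated one by more than counting error at E9.5 only. Ungated barcodes were rich in macrophage markers from E12.5 on, at 8895, 10933, 2684 and 4173 CPM from E12.5 to the adult. Endothelial barcodes had 485, 52.9, 21.3 and 105. The part of macrophages in the ungated Stab1 shares was not tested, so these shares do not give a background for endothelial Stab1. Stab2 was at 12.7 (11.7 to 13.8), 12.1, 9.98, 4.96 and 1.72 (1.23 to 2.34) CPM from E9.5 to the adult, about alike at the 2 youngest ages and lower after that. Its thinned shares were 1.24% of endothelial and 0.186% of ungated barcodes at E9.5, and 1.18% and 0.181% at E12.5, where the intervals overlapped, as they did at the later ages. Lyve1 gave 40.8 (39.0 to 42.7), 9.08, 1.77, 0.480 and 0.387 (0.177 to 0.735) CPM, most of its decline lying between E9.5 and E12.5. Thinned Lyve1 shares were 3.02% of endothelial and 1.40% of ungated barcodes at E9.5, but 0.851% and 2.17% at E12.5 and 0.158% and 17.6% at E16.5, so only the E9.5 share was above the ungated one. Gpr182 went from 28.6 (27.1 to 30.2) to 18.5 (17.6 to 19.5) and back to 27.2 (25.6 to 28.8) at E16.5, and then to 5.72 at P8 and 3.31 (2.61 to 4.14) in the adult. Thinned Gpr182 shares were 3.34% against 1.02% of ungated barcodes at E9.5 and 1.70% against 0.181% at E12.5. They were 2.54% against 1.96% (0.0496% to 10.4%) at E16.5 and 0.129% against 0.813% in the adult, neither above the ungated share by more than counting error. Oit3 declined from 5.49 (4.83 to 6.21) to 3.93, 2.47, 0.0496 and 0.129 (0.0266 to 0.377) CPM. At E9.5 its thinned shares of 0.568% and 0.0930% had overlapping intervals.

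Clec4g gave few UMIs in brain, with 57 at E9.5, or 1.25 CPM (0.944 to 1.61), and 15 at E12.5. Its thinned share at E9.5 was 0.142%, against 0.0930% of ungated barcodes, within counting error of each other. None was found in 3786, 4778 and 3154 endothelial barcodes at the 3 later ages. By the rule of 3 (3 divided by the number of barcodes) this allows shares of up to 0.0792%, 0.0628% and 0.0951%. The exact 95% interval used for other shares is wider, reaching 0.0974% for 0 of 3786 barcodes. These limits concern barcodes with a Clec4g UMI, not barcodes that express the gene, and cover counting error only.

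Mrc1 and Fcgr2b did not follow the decline. Mrc1 gave 7.76 (6.97 to 8.61), 7.79, 1.81, 0.761 and 7.66 (6.57 to 8.87) CPM, and Fcgr2b 0.131 (0.0481 to 0.285), 1.59, 0.447, 0.182 and 3.01 (2.35 to 3.80). Macrophage markers went with both. Of 178 adult Mrc1 UMIs 164 lay in the 102 endothelial barcodes with at least 2 macrophage-marker UMIs, and so did 70 of 70 Fcgr2b UMIs. Without those barcodes adult Mrc1 was 0.639 CPM (0.349 to 1.07) and E9.5 Mrc1 6.31 (5.57 to 7.13). At E12.5 the ungated barcodes, where macrophage markers reached 8895 CPM, held 108 CPM of Mrc1 and 20.7 of Fcgr2b, above the 7.79 and 1.59 of endothelial barcodes.

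At E9.5 Lyve1 and Mrc1 were detected in a larger share of the barcodes with Stab2 than of the rest. Of 357 barcodes with Stab2, 46.5% also held Lyve1, against 8.17% of the rest, and 19.9% held Mrc1, against 3.20%. Thinned Mrc1 shares at E9.5 were 0.763% of endothelial (0.553% to 1.03%) and 0.372% of ungated barcodes (0.101% to 0.950%), with overlapping intervals. The co-detection shares were not thinned. Depth went with the pairing in part, at median counts of 9164 UMIs with Stab2 and 7048 in the rest. At E12.5 the 794 barcodes with Stab2 held Lyve1 in 2.77% and the rest in 3.62%, so the pairing was not seen there. Lyve1 at E12.5 went instead with Prox1, the lymphatic transcription factor (19.7% of 223 barcodes against 2.56% of the rest, median depths 13585 and 10394 UMIs). Mrc1 at E12.5 went with Csf1r, the macrophage growth factor receptor (45.2% of 239 barcodes against 3.85%, median depths 13694 and 10344 UMIs).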

How the data were processed

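The study's ATAC-seq libraries were aligned with Bowtie2 to mm10 and peaks were called with MACS2, per the submitters' processing notes. Per the header of the first peak list, MACS2 2.1.2 was run in broad mode without a control, with shift -100, extension 200 and q thresholds of 0.05 and 0.1. The settings in the headers of the other lists were not compared. The deposited peak lists give, for each peak, the pileup signal, the fold enrichment ratio and the −log10 q-value, all the authors' own. The single-cell matrices hold UMI counts deposited from Cell Ranger, per the submitters' processing notes. The 54 RNA-seq tables were not used here, since no table at hand pairs their transcripts with genes.

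From these, peak signal (pileup times bases under peaks within 50 kb of each gene, per 10 M tags kept) was computed and log2(signal + 1) was fitted over 21173 protein-coding genes and all 66 libraries with limma 3.58.1 (R 4.3.3), 1 mean per group, trended variance. Genes had a peak in at least 2 libraries. Called means a Benjamini-Hochberg adjusted p under 0.05 and a log2 difference of at least 1, and every adjusted p in the text comes from limma. Differences are on the log2(signal + 1) scale, which understates change at low signal. Regions were fitted the same way over 364214 stretches. The fits were also run on simulated data, whose outcome is not given here. Those values were drawn with normal spread and without the zeros of uncalled peaks, so they do not cover genes such as Fcgr2b. Depth was 10.1 to 59.1 M tags per library. Peak heights carry no count per gene, so no counting interval was given for them.

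Single-cell rows of the E16.5 matrix follow the other libraries' gene order, checked by the correlation of mean levels with E12.5 (r = 0.975, and 0.209 when shifted by 1 row). UMI intervals are exact Poisson, intervals of shares are exact binomial, and shares are plain or thinned to 1000 UMIs. No doublet caller was run.

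The 9 genes, the gene lists and the tests were chosen with earlier results of these data known. Text names all 9 genes for liver over other organs at both ages and for adult liver over input, and only some of them in the other comparisons. It also names the region over each start site or gene end, the region of largest adult liver difference, and the 5 most similar genes. Other regions and list genes named were picked after their values were seen. Alternatives were another window, measure, peak threshold, list length, pseudocount, filter, set of samples, replicate block and each library left out. Whether replicate numbers pair the libraries was checked over 105 pairs of endothelial libraries numbered 1 in different groups: correlations of their deviations ran from -0.436 to 0.401. Between adult endothelial and input libraries numbered 1 of an organ they ran from -0.499 to 0.485. Adult input 1 had fewer peaks than input 2 in each of the 4 organs with both. The labels give the numbers no meaning, so no block was used.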

Additional observations from a re-analysis of the deposited data

Results flagged for a closer look

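Among 18 sets of a member and a group of 4 libraries, 1 held a library far from the others by Dixon's criterion. Oit3 peak signal in the third E12 heart endothelial library was 20.7, against 61.5 to 69.4 in the other 3. That library had the fewest tags, 10.1 M, and 39096 peaks. Chance alone flags about 1 set in 20.

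The liver differed from the mean of the other organs in how far adult endothelium exceeded input, by limma's test of that difference, for 7 members. On the log2 scale the excess was 2.82 for Stab1, 3.58 for Stab2, 4.93 for Mrc1, 3.04 for Clec4g, 5.20 for Fcgr2b, 2.87 for Clec1b and 3.22 for Oit3. The same test called 32.9% of all genes, with a median of 1.42, so the members' count is to be read against that share. Neither adult liver input shares the kind of read file of the liver endothelial libraries, so cell fraction and kind of read file cannot be told apart in this excess. Without the first adult liver input library, which had 25880 peaks, none of the members was called.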

How the results depend on the processing

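Most calls rest on a pair of liver libraries. When 1 liver library is left out, the fit rests on the other alone. Leaving out libraries in turn, the number of members called was 1 to 7 for adult liver over other organs, 0 to 3 at P6, 0 to 5 for adult liver endothelium over input, 0 to 8 for the adult liver excess, and 0 to 1 for endothelium over input in 6 organs at either age (at P6 0 without liver input 4). Brain and heart had 1 adult input library each, which could not be left out. The shares of all genes or regions called in these fits are not given here, so the counts of this paragraph cannot be set against them. The 63 adult regions near members ranged from 54 to 64, the 61 P6 regions from 43 to 73. Clec1b in adult liver over other organs was not called without heart 1 (adjusted p = 0.0536), kidney 1 (0.05003), liver 1 (0.280) or liver 2 (0.675).

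With covered bases in place of signal, 3 members were called for adult liver over input, 1 at P6 for liver over other organs and 0 for P6 endothelium over input. With an equal number of top peaks, P6 counts of members were 5 for liver over other organs, 1 for the liver excess and 3 for endothelium over input, and 1 each for E12 trunk and heart over brain. With a 5 kb window, they were 1 for P6 liver over input, 1 for the P6 excess, 3 for P6 and 0 for adult endothelium over input. A −log10 q of at least 5 left 1, and endothelial libraries only gave 4, for P6 liver over other organs. For adult endothelium over input a pseudocount of 0.1 gave 3 members and no filter 0. Of the alternatives chosen after seeing the data, kidney only gave 2 members in the adult, and centring each library on its median gave 7 members at P6 for liver over other organs, 6 for liver over input and 5 for the excess. The shares of all genes called under the settings of this paragraph are not given here, so its counts cannot be set against them.

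Signs that turned were all among uncalled differences. Centring gave -0.14 for Lyve1 in adult liver over input and -0.41 for Gpr182 in the adult excess. Equal top peaks gave -0.10 for Clec1b and -0.57 for Gpr182 in the P6 excess. In the P6 liver over input comparison, leaving out libraries gave -0.12 to 1.47 for Lyve1 and -0.25 to 1.56 for Gpr182. In the P6 excess it gave -0.23 to 1.47 for Stab1, -0.42 to 1.17 for Lyve1, -0.27 to 1.09 for Clec1b and -0.69 to 1.126 for Gpr182, lowest without P6 liver input 4. The cause of these moves was not tested.

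The replicate block changed no count of members: 6 and 2 were called for adult and P6 liver over other organs, 5 for adult liver over input and 7 for the adult excess. The shares of all genes called with the block are not given here. Endothelial libraries numbered 1 correlated above 0.1 in 36 of 105 pairs. Of 178 counts with 1 library left out, 165 stayed within 1.5 times, as did 107 of 127 under other settings. Counts that were 0 and stayed at 0 are among these. So are totals of 1 where a member called lower gave way to one called higher, as in adult endothelium over input averaged over organs. The tally therefore does not measure how steady the calls of single members were. RNA-seq alternatives were not run. Fcgr2b was at 0 in 6 of the 10 adult endothelial libraries of other organs; a peak not called is not closed chromatin, and whether depth sets these zeros was not tested.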
